A study of Homo sapiens with 16 samples.

Results

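DNA replication genes and the enzymes that supply deoxynucleotides were followed as a set of 48 genes in HEK293 cells, a line of human embryonic kidney origin. The 48 members were taken by gene symbol and placed in 8 roles, from origin licensing to chromatin copying. They were 48 of the 28028 genes with counts, and all 48 were among the 16787 genes tested. RNA sequencing was done on 4 groups of cells that overexpressed the RNF43 frameshift variant G659fs, the RNF43 frameshift variant R117fs, wild-type RNF43 (WT) or, as the control, GFP, with 4 libraries in each group. RNF43 is a membrane E3 ubiquitin ligase that takes Frizzled receptors off the cell surface and so lowers Wnt signalling. All 4 groups kept their own RNF43 gene beside the construct, and how the constructs were delivered, or from which promoter, was not given in the sources used here. Nothing in the labels says that the replicates came from separate cultures, so p-values measure only the spread between these libraries, which may be technical.

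A cell licenses its origins in G1, when the origin recognition complex, CDC6 and CDT1 load rings of the MCM helicase onto DNA. In S phase the kinase of CDC7 and DBF4, together with CDC45, MCM10 and the GINS complex, turns these rings into active helicases, and primase, the replicative polymerases, the sliding clamp and the single-strand binding protein copy the opened strands. Ribonucleotide reductase, thymidylate synthase and thymidine kinase make the building blocks. Many of these genes are transcribed most strongly around the start of S phase under E2F factors. In RNA from a whole culture, fewer cells in S phase and less of a transcript per cell cannot be told apart.

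Total estimated counts were 20364357 to 46779570 per library. RNF43 itself reached 35240 to 47180 CPM (counts scaled to library size, with TMM factors) in G659fs libraries, 30190 to 94570 in R117fs, 42150 to 59770 in WT and 13.2 to 50.3 in GFP, which checks RNF43 against GFP libraries. A coding RNF43 transcript of 4367 bases took 28.1% ± 0.25 of RNF43's estimated reads in G659fs, 99.4% ± 0.36 in R117fs, 27.5% ± 0.41 in WT and 43.5% ± 24.1 in GFP libraries (SD, n = 4), so R117fs stood apart from the other constructs, and G659fs was not told from WT by it. R117fs replicate 4 stood apart from its group: across genes its log2 deviations from the other 3 libraries had an SD of 0.579, against at most 0.409 in the other 15, and they tracked GC content (Spearman correlation 0.799; genes are not independent points). R117fs replicate 1 differed too, with 30190 CPM of RNF43 against 69370 to 94570 in the other R117fs libraries. Its counts, RNF43 included, differed from those of replicates 2 and 3 by a chi-square of 70.97 and 78.23 per degree of freedom. Replicates 2 and 3 differed by 5.45, and replicate 4 differed from them by 61.38 and 50.34. All 11 markers of embryonic kidney and HEK293 cells reached 1 TPM (transcript abundance scaled by length and depth) in at least 1 library, though LHX1 had a median of 0.65 TPM. In at least 1 library 3 of 4 gut epithelium and 3 of 6 fibroblast markers reached 1 TPM as well. Of these, CDX2 of gut epithelium (18.98 to 27.3 TPM) and COL1A1 of fibroblasts (13.03 to 30.1 TPM) were present, while PTPRC, CD3E and HBB of blood cells and COL1A2 and THY1 of fibroblasts stayed at or below 0.22 TPM. The summed fibroblast markers were 22.7 to 31.8 TPM in G659fs, 16.4 to 28.0 in R117fs, 14.3 to 18.7 in WT and 21.0 to 24.0 in GFP libraries. The part of these markers in the results was not tested.

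Replication genes changed little as a set, and a few of them changed clearly. Of the 48 members, 20 passed edgeR's quasi-likelihood test (Benjamini-Hochberg adjusted p under 0.05) in at least 1 of the 6 comparisons between groups, in 41 calls, and 28 passed in none. No member reached a 2-fold difference in any comparison: the largest was RRM2 in G659fs against GFP, at 1.51-fold. Fold changes are log2 ± SE, with the first group named over the second. In G659fs against GFP 3 members were higher and 5 lower (24.9% of all genes tested were called, 11.4% higher and 13.5% lower). In R117fs against GFP 2 were higher and 1 lower (15.6% of all genes, 7.16% higher and 8.41% lower). In WT against GFP 9 were higher and 1 lower (21% of all genes, 9.64% higher and 11.3% lower). The share of members called in these 3 comparisons was at or below that of all genes, except for the higher calls in WT.

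Between the RNF43 groups the members leaned towards lower values in both variants than in WT. R117fs against WT gave 8 lower members and 0 higher (7.96% of all genes called, 4.48% higher and 3.48% lower). G659fs against WT gave 3 lower and 0 higher (4.99% of all genes, 2% higher and 2.98% lower). At an unadjusted p under 0.05, 1 member was higher in each of these 2 comparisons and 17 were lower in R117fs and 15 in G659fs, and DESeq2 found 0 higher in both. G659fs against R117fs gave 3 higher and 6 lower (14.1% of all genes, 6.1% higher and 8.01% lower). The median log2 fold change of the 48 members was -0.03 in G659fs, -0.03 in R117fs and 0.09 in WT, each against GFP, and -0.11 in G659fs and -0.14 in R117fs, each against WT, where the median of all genes tested was between -0.01 and 0.00. Comparisons with GFP share the GFP libraries, and those with WT share the WT libraries.

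The counts depended on single libraries. Every result was recomputed under 25 alternatives: another normalisation, filter, offset, tool or model, or 1 library left out. Without R117fs replicate 4, which enters every comparison through the shared estimate of the spread, 15 members were called in G659fs against GFP (39.3% of all genes called), 10 in R117fs against GFP (21.6%) and 20 in WT against GFP (35.6%). In that setting 16 were called in G659fs against R117fs (23.3%), 18 in G659fs against WT (20%) and 8 in R117fs against WT (9.51%). A fit of the 2 compared groups alone called 13 members in G659fs (42.8% of all genes), 1 in R117fs (3.44%) and 22 in WT (36.3%), each against GFP. It called 3 in G659fs against R117fs (4.57%), 22 in G659fs against WT (28.2%) and 0 in R117fs against WT (0.858%). In the last of these fits 11 members were lower at an unadjusted p under 0.05. DESeq2, fitted to all 16 libraries and not to 2 groups alone, called 12 lower in R117fs against WT. Other libraries also moved the number of members called by over 1.5 times. In G659fs against GFP the 8 became 5 without GFP replicate 2 or G659fs replicate 2 and 4 without G659fs replicate 4. In R117fs against GFP the 3 became 8 without R117fs replicate 1, and in WT against GFP the 10 became 5 without GFP replicate 2 or 4. In G659fs against R117fs the 9 became 15 without R117fs replicate 1 and 4 without G659fs replicate 3. In G659fs against WT the 3 became 1 without WT replicate 4 or G659fs replicate 4 and 0 without WT replicate 1 or 3 or G659fs replicate 2 or 3, where edgeR still had 12 to 15 lower at an unadjusted p under 0.05. In R117fs against WT the 8 became 3 without any 1 WT library, 5 without R117fs replicate 2, 4 without R117fs replicate 3 and 14 without R117fs replicate 1.

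**Figure D1:**
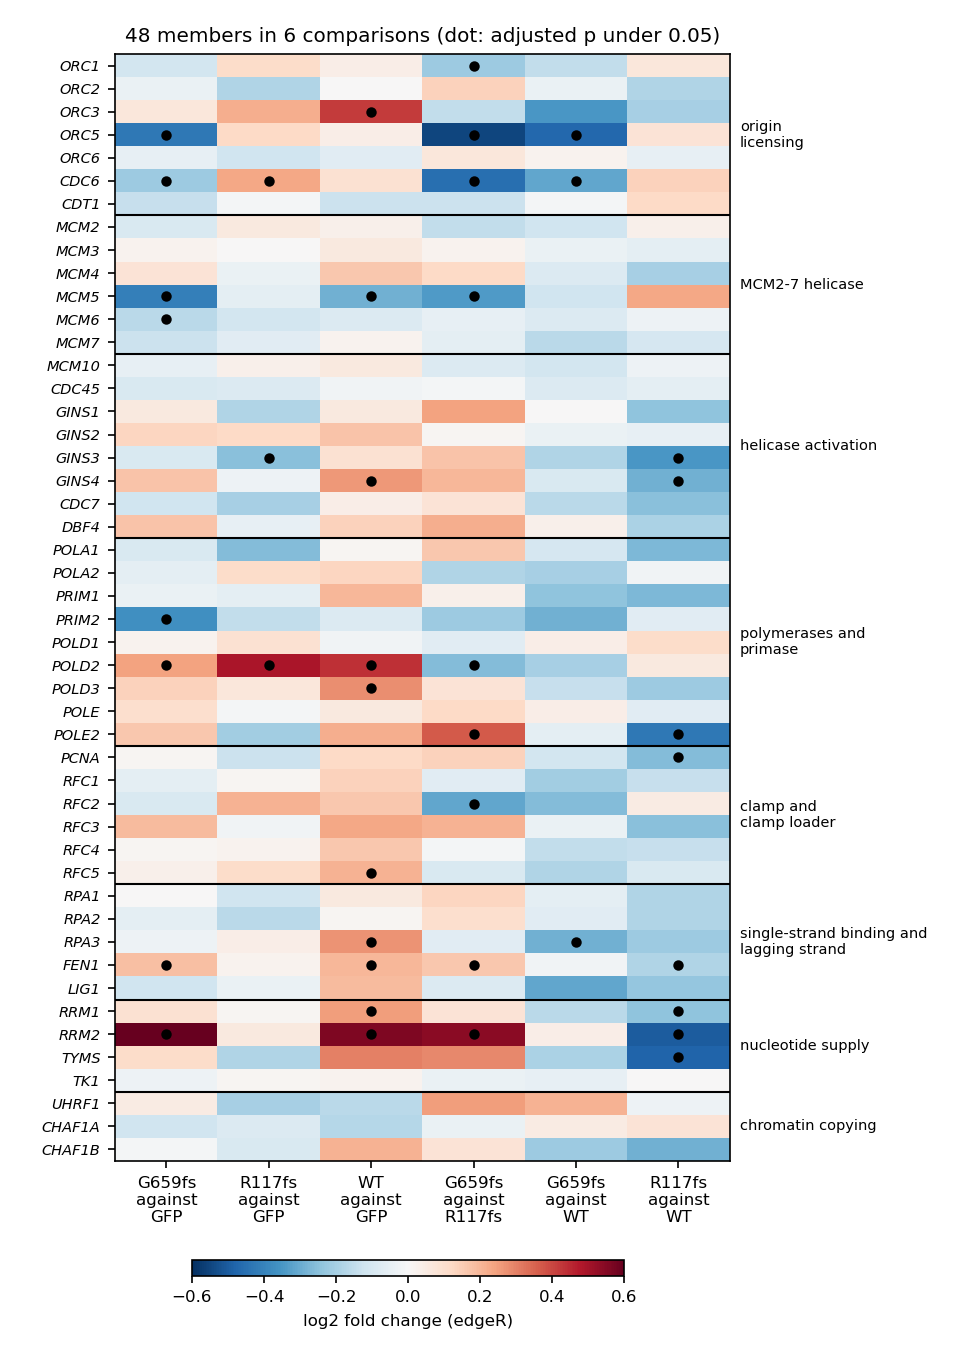
Each row is 1 of the 48 members, grouped by role, and each column 1 of the 6 comparisons; colour gives edgeR's log2 fold change (the first group named over the second) from -0.6 to 0.6, and a dot marks an adjusted p under 0.05. RRM2 and POLD2 stand out against GFP, ORC5 and CDC6 are low in all 3 G659fs columns, and the right column, R117fs against WT, holds 8 dots, all on the lower side.

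In GFP cells the members spanned 20.5 to 467 TPM, with a median of 85.9. CDT1, the licensing factor that brings MCM rings to origins, was the highest at 467 ± 52.2 TPM (SD, n = 4), and POLE2, the second subunit of polymerase epsilon, the lowest at 20.5 ± 0.617 TPM. These levels sum all transcripts of a gene. Within the MCM helicase, whose 6 subunits form 1 ring, the order was MCM7 (420 ± 12.7 TPM), MCM4 (312 ± 19.8), MCM5 (219 ± 10.9), MCM3 (209 ± 3.61), MCM2 (177 ± 8.89) and MCM6 (88.1 ± 1.93). Only MCM5 and MCM3 overlapped between libraries among neighbours in that order. PCNA, the sliding clamp, reached 374 ± 20.6 TPM, above all 5 subunits of its loader, which lay between 71.4 ± 3.48 (RFC3) and 135 ± 4.21 TPM (RFC2). Among the licensing factors the libraries of CDT1, CDC6 (83.5 ± 5.41 TPM) and ORC6 (67.4 ± 4.81) were apart from each other, while ORC1, ORC5, ORC2 and ORC3, at 23.4 to 31.3 TPM, each overlapped with the next. The large subunit of ribonucleotide reductase, RRM1, was at 171 ± 11.8 TPM and the small subunit, RRM2, at 90.7 ± 7.22 TPM.

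The order changed when transcripts annotated as protein coding were summed alone. PCNA was then highest (374 ± 20.6 TPM), followed by CDT1 (275 ± 30.6), and the MCM order was MCM5 (210.1 ± 10.6), MCM3 (205.5 ± 3.00), MCM2 (152 ± 7.46), MCM4 (138.5 ± 9.35), MCM7 (112 ± 1.72) and MCM6 (71.1 ± 1.89). Of MCM7's estimated reads 67.9% ± 0.93 were on a transcript annotated with a retained intron. DBF4 was lowest, at 1.39 ± 0.56 TPM instead of 50.8, with 58.4% ± 1.68 of its reads on 1 transcript annotated for nonsense-mediated decay. RRM1 was at 94.1 ± 2.92 and RRM2 at 58.3 ± 2.42 TPM.

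**Figure D2:**
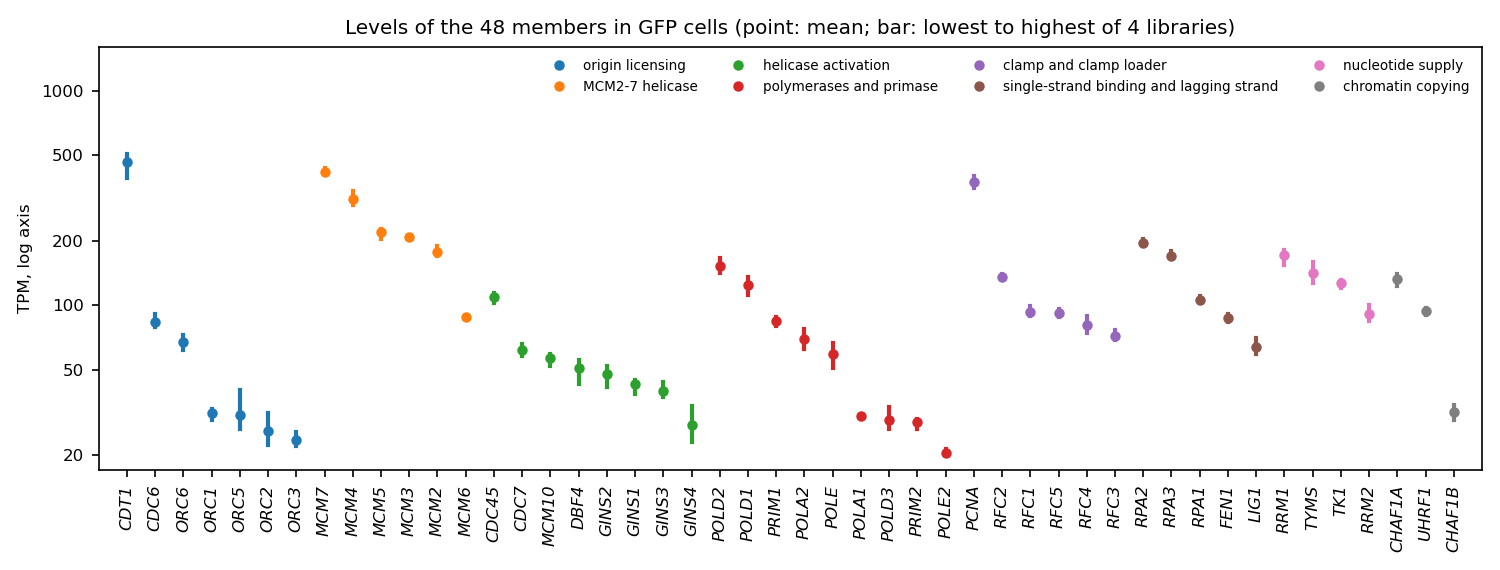
Levels of the 48 members in the 4 GFP libraries in TPM on a log axis, by role and in falling order within a role; points are means and bars run from the lowest to the highest library. All transcripts of a gene are summed. CDT1, MCM7 and PCNA are highest at 467, 420 and 374 TPM, and POLE2 is lowest at 20.5 TPM.

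Promoter windows, 250 bases before to 50 after a transcript start, came from RefSeq on GRCh38.p14 and matched 42 of the 48 members with 54 windows. MCM4, MCM5, GINS4, POLD3, RPA2 and RPA3 were not matched. An E2F motif (TTCCCGC or TTGGCGC, either strand) stood in 31 of the 54 windows (57.4%) and in 29 of the 42 members, against 9.23% of all 35116 windows and 12.8% of the 17321 windows of genes tested. A CCAAT box (CCAAT, either strand) was also in 31 of the 54 windows (57.4%), against 34.6% of all windows. A cell cycle homology region (TTTGAA or TTCGAA, either strand) is known from genes of late cell cycle phases. It was in 3 of the 54 windows (5.56%), against 16.4% of all windows and 12% of the windows of genes tested. An E2F motif and a CCAAT box can share letters (TTGG): their matches shared at least 1 base in 5 of the 20 member windows that held both. No match of the cell cycle homology region shared a base with either in these windows, and longer or looser forms were not searched. A match is a description of the letters and not a measured binding site.

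Windows are shown for RRM2, the member with the largest change, for TYMS, the other nucleotide gene with a large difference between R117fs and WT, and for CDC6 and ORC5, the pair that was lowest in G659fs. Each is printed from 250 bases before the start to 20 after it, 5′ to 3′ on the gene's strand, with E2F motifs and CCAAT boxes in capitals.
RRM2 (chr2:10122489-10122758, + strand): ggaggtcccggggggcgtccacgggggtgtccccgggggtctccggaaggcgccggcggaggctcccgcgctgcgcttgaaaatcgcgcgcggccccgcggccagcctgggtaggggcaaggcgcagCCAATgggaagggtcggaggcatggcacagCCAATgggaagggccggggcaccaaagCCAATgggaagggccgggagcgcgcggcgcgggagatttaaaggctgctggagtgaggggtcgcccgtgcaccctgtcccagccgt
TYMS (chr18:657403-657672, + strand): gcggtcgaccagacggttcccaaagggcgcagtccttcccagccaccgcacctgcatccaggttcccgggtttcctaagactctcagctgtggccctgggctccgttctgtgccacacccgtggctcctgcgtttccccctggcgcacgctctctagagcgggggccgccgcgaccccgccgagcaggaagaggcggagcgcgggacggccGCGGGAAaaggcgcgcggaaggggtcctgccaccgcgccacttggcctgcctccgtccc
CDC6 (chr17:40287629-40287898, + strand): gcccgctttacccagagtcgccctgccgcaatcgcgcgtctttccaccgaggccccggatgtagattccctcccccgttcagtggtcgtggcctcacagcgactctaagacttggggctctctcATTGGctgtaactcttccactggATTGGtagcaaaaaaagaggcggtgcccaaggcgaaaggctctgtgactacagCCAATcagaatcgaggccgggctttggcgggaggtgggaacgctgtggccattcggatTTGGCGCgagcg
ORC5 (chr7:104207994-104208263, - strand): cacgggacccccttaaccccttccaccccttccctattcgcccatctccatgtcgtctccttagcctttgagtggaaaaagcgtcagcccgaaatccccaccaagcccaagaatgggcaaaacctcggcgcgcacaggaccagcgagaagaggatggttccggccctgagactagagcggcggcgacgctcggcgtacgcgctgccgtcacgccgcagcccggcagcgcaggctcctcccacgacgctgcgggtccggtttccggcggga
RRM2 showed 3 CCAAT boxes from base 128, 158 and 185 of the window, where base 251 is the transcript start, and the window of a second RefSeq start of RRM2 held an E2F motif. TYMS had an E2F motif from base 212. CDC6 had CCAAT boxes from base 125, 148 and 201 and an E2F motif from base 259. ORC5 had neither motif in its window.

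Members with and without an E2F motif are set side by side here without a test. In R117fs against WT 6 of the 29 members with the motif and 1 of the 13 without it were lower, with median log2 fold changes of -0.18 and -0.05. In WT against GFP 3 of the 29 and 3 of the 13 were higher, with medians of 0.09 and 0.04. In G659fs against WT 1 of the 29 and 1 of the 13 were lower, and both medians were -0.11. Split by CCAAT boxes instead, 3 of the 25 members with a box and 4 of the 17 without one were lower in R117fs against WT. Their medians were -0.07 and -0.18, again without a test.

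Nucleotide supply held the largest changes of the set. RRM2, whose enzyme makes deoxynucleotides and which is made mostly in S phase, was about 1.5-fold higher in both G659fs and WT cells than in GFP cells and lower in R117fs than in WT. RRM1 rose in WT, TYMS fell in R117fs relative to WT, and TK1, thymidine kinase, passed no test.

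RRM2 (ENSG00000171848, chr2:10120698-10131419, + strand) had 211, 206, 205 and 216 CPM in G659fs, 161, 152, 155 and 108 CPM in R117fs, 184, 227, 194 and 208 CPM in WT, and 141, 135, 140.4 and 138 CPM in GFP cells. All G659fs and all WT libraries lay above all GFP libraries, all R117fs libraries lay below all G659fs and WT libraries, and R117fs replicate 4 was the lowest of all 16. RRM2 rose in G659fs against GFP (0.60 ± 0.10, adjusted p = 0.000281) and in WT against GFP (0.56 ± 0.10, adjusted p = 0.000654), and both calls held in all 25 alternatives. It was higher in G659fs against R117fs (0.54 ± 0.10, adjusted p = 0.00131). This call held in all 25 alternatives (adjusted p at most 0.0263). It fell in R117fs against WT (-0.50 ± 0.10, adjusted p = 0.00488). That call was lost in a fit of the 2 groups alone (adjusted p = 0.0951) and in no other of the 25 alternatives. In R117fs against GFP the log2 fold change was 0.06 ± 0.10 (adjusted p = 0.747), and without R117fs replicate 4 it was 0.17 with an adjusted p of 0.0317. G659fs and WT were 0.04 ± 0.10 apart (adjusted p = 0.845), with overlapping libraries.

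RRM1, the large subunit that pairs with RRM2 (chr11:4094707-4138876, + strand), had 234, 223, 229.5 and 225 CPM in G659fs, 239, 223, 211 and 187 CPM in R117fs, 263, 256, 246 and 254 CPM in WT, and 209, 220.3, 209 and 218 CPM in GFP cells. WT libraries lay above all R117fs, G659fs and GFP libraries, and R117fs replicate 4 was below every other library. The rise in WT against GFP was 0.25 ± 0.06, adjusted p = 0.0091. The call held in all 25 alternatives (adjusted p at most 0.0318). The fall in R117fs against WT was -0.24 ± 0.06, adjusted p = 0.027. It was lost without any 1 of R117fs replicate 3 and WT replicates 1, 2, 3 and 4 (adjusted p 0.0539 to 0.0892) and without the low-count filter, with an effective length offset and in a fit of the 2 groups alone (up to 0.341 over the 25 alternatives). The paired subunits thus gave the same calls in WT against GFP and in R117fs against WT, while in G659fs against GFP RRM1 was at 0.09 ± 0.06 (adjusted p = 0.31).

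TYMS, thymidylate synthase, which makes the thymidine nucleotide from its uracil precursor (chr18:657604-673578, + strand), had 129.6, 116, 116 and 122 CPM in G659fs, 127, 92.5, 91.2 and 83.4 CPM in R117fs, 152, 129.6, 137 and 132 CPM in WT, and 126, 102, 119 and 99.6 CPM in GFP cells. R117fs replicate 1 was just above the highest GFP library while replicates 2, 3 and 4 were below all GFP libraries, and every WT library was above every R117fs and GFP library. TYMS fell in R117fs against WT (-0.48 ± 0.11, adjusted p = 0.0134). This call was lost in a fit of the 2 groups alone (adjusted p = 0.105) and in no other of the 25 alternatives. WT against GFP did not pass (0.30 ± 0.11, adjusted p = 0.0567), and without R117fs replicate 4 it did (0.30, adjusted p = 0.0318). TK1, which salvages thymidine, averaged 123 ± 3.15 CPM in G659fs, 127 ± 26.5 in R117fs, 127 ± 2.24 in WT and 126 ± 6.52 in GFP cells (SD, n = 4), with log2 fold changes between -0.05 and 0.02 in the 6 comparisons, none past the test.

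**Figure D3:**
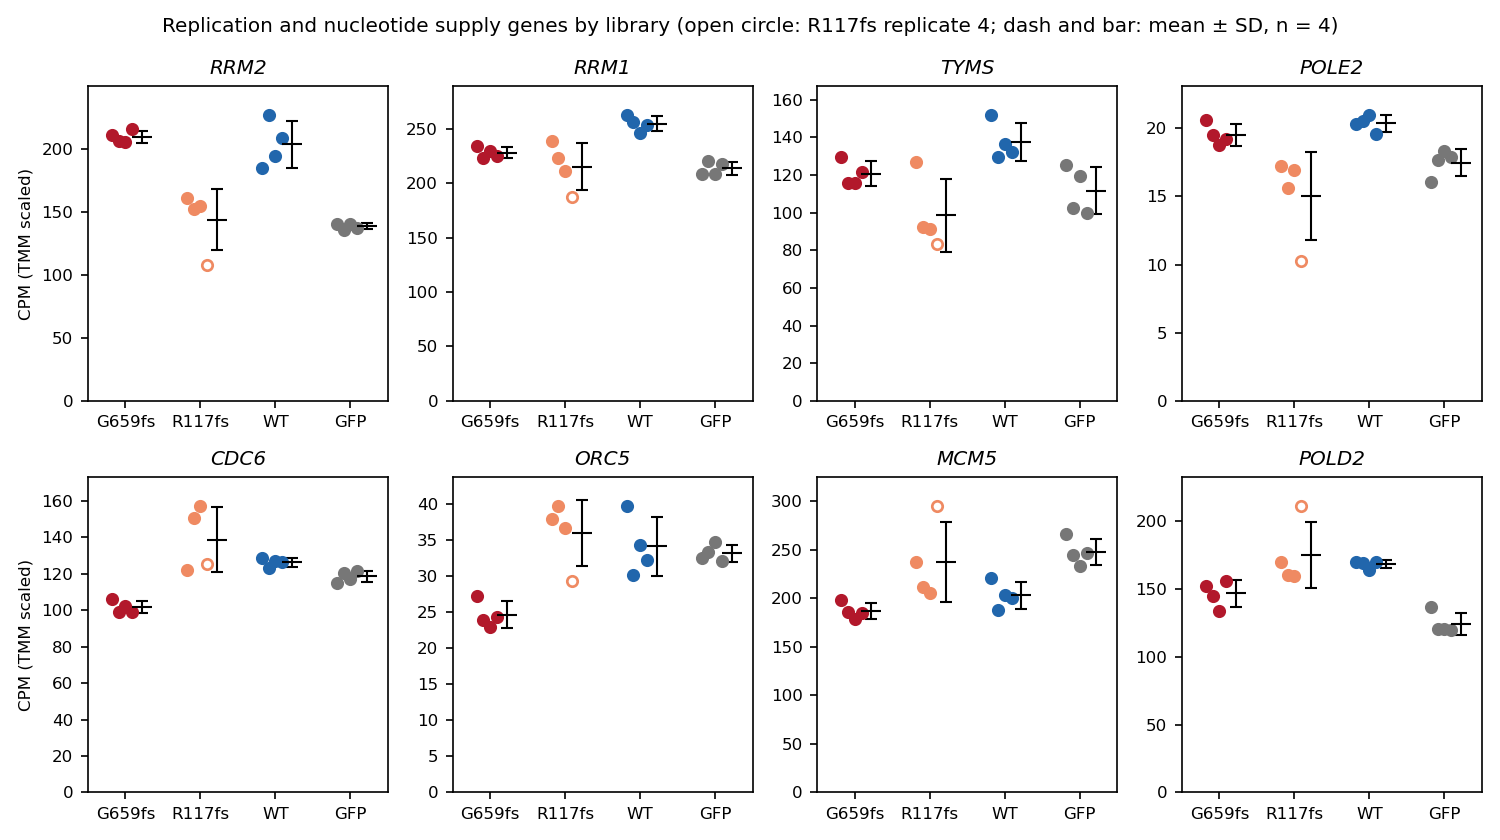
CPM of 8 members in each library, with axes starting at 0; groups run from G659fs on the left to GFP on the right, dashes and bars give mean ± SD (n = 4), and the open circle is R117fs replicate 4. RRM2 is at 205 to 216 CPM in G659fs and 135 to 141 CPM in GFP, ORC5 and CDC6 are lowest in G659fs, and the open circle is low for RRM2, RRM1, TYMS, POLE2 and ORC5 and high for MCM5 and POLD2.

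Among the 7 licensing genes the clearest pattern was a lower level of ORC5 and CDC6 in G659fs than in each other group. ORC3 rose in WT against GFP, ORC1 was lower in G659fs than in R117fs, and CDT1, ORC2 and ORC6 passed no test. Against GFP, 2 licensing genes fell in G659fs, 1 rose in R117fs and 1 rose in WT.

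ORC5, a subunit of the origin recognition complex (chr7:104126341-104208047, - strand), had 27.2, 23.9, 22.9 and 24.3 CPM in G659fs, 37.9, 39.7, 36.7 and 29.3 CPM in R117fs, 39.7, 30.2, 34.3 and 32.2 CPM in WT, and 32.4, 33.3, 34.7 and 32.1 CPM in GFP cells. Every G659fs library was below all 12 others, and R117fs replicate 4 was the lowest of the remaining 12. ORC5 fell in G659fs against R117fs (-0.55 ± 0.10, adjusted p = 0.00108). That call held in all 25 alternatives (adjusted p at most 0.0143). Against GFP it fell as well (-0.43 ± 0.10, adjusted p = 0.00328). The call was lost with an effective length offset (adjusted p = 0.116) and in no other of the 25 alternatives. Against WT the fall was -0.47 ± 0.09, adjusted p = 0.013. It was lost without any 1 of G659fs replicates 2 and 3 and WT replicates 1 and 3 (adjusted p 0.05 to 0.0697) and with an effective length offset (up to 0.106 over the 25 alternatives).

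CDC6, the ATPase that works with the origin recognition complex to load MCM rings (chr17:40287633-40304657, + strand), had 106, 99.3, 102 and 99.1 CPM in G659fs, 122, 151, 157 and 126 CPM in R117fs, 129, 123, 127 and 127 CPM in WT, and 115, 121, 117 and 122 CPM in GFP cells. G659fs was again below all other libraries, and within R117fs replicates 2 and 3 were well above replicates 1 and 4. The fall in G659fs against R117fs (-0.45 ± 0.07, adjusted p = 0.000661) held in all 25 alternatives (adjusted p at most 0.0221). Against GFP the fall was -0.22 ± 0.07, adjusted p = 0.0319. This call was lost without any 1 of G659fs replicates 2, 3 and 4 and GFP replicates 2, 3 and 4 (adjusted p 0.0633 to 0.0907) and without the low-count filter (up to 0.0907 over the 25 alternatives). Against WT it was -0.31 ± 0.07, adjusted p = 0.0227. That call was lost without any 1 of G659fs replicates 2, 3 and 4 and WT replicates 1, 3 and 4 (adjusted p 0.0633 to 0.0987) and with an effective length offset (up to 0.0987 over the 25 alternatives). The rise in R117fs against GFP (0.23 ± 0.07, adjusted p = 0.0403) was lost without any 1 of 11 libraries, all but G659fs replicate 1, R117fs replicates 1 and 4 and WT replicates 1 and 2 (adjusted p 0.0507 to 0.115) and without the low-count filter and in a fit of the 2 groups alone (up to 0.218 over the 25 alternatives).

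ORC3, another subunit of the complex (chr6:87590067-87667453, + strand), had 38.1, 33.3, 33.6 and 37.6 CPM in G659fs, 43.8, 45.2, 41.4 and 26.96 CPM in R117fs, 48.4, 44.3, 42.9 and 45.9 CPM in WT, and 34.01, 33.3, 34.97 and 33.5 CPM in GFP cells. All WT libraries were above all GFP and G659fs libraries, and so were R117fs replicates 1 to 3, while R117fs replicate 4 was below every other library. ORC3 rose in WT against GFP (0.42 ± 0.11, adjusted p = 0.0139). The call was lost with an effective length offset (adjusted p = 0.0594) and in no other of the 25 alternatives. In R117fs against GFP the value was 0.22 ± 0.11 (adjusted p = 0.205), and without R117fs replicate 4 it passed at 0.36 (adjusted p = 0.000292). ORC1, the ATPase subunit of the complex, averaged 61.6 ± 1.76 CPM in G659fs, 71.8 ± 1.76 in R117fs, 68.2 ± 1.57 in WT and 66.4 ± 4.04 in GFP cells (SD, n = 4) and was lower in G659fs against R117fs (-0.22 ± 0.06, adjusted p = 0.0143). It was lost without the low-count filter, with an effective length offset and in a fit of the 2 groups alone (up to 0.0814 over the 25 alternatives).

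CDT1 (chr16:88803213-88809258, + strand) had 400.1, 373, 383 and 379.5 CPM in G659fs, 426, 335, 341 and 574 CPM in R117fs, 395, 367, 373 and 407 CPM in WT, and 433, 448, 347 and 460.2 CPM in GFP cells. Its groups overlapped, and R117fs replicate 4 was the highest library of all. No comparison passed, with log2 fold changes between -0.14 and 0.12. 

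The MCM helicase fell in part in G659fs. MCM5 and MCM6 of its 6 subunits were lower in G659fs against GFP, and MCM5 was also lower in WT against GFP and in G659fs against R117fs. MCM2, MCM3, MCM4 and MCM7 passed no test in any comparison.

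MCM5 (chr22:35400063-35425430, + strand) had 199, 186, 179 and 185 CPM in G659fs, 238, 212, 205 and 295 CPM in R117fs, 221, 188, 204 and 200.2 CPM in WT, and 266, 244, 234 and 247 CPM in GFP cells. G659fs and WT libraries were all below the lowest GFP library, and R117fs spanned the range from WT to above GFP, with replicate 4 on top. MCM5 fell in G659fs against GFP (-0.41 ± 0.09, adjusted p = 0.00382). This call held in all 25 alternatives (adjusted p at most 0.016). The fall in WT against GFP was -0.29 ± 0.09, adjusted p = 0.0336. That call was lost without any 1 of WT replicates 2, 3 and 4 and GFP replicates 1, 2 and 4 (adjusted p 0.0524 to 0.0972). The fall in G659fs against R117fs was -0.34 ± 0.09, adjusted p = 0.0183. The call was lost without G659fs replicate 3 (adjusted p 0.0639) and in a fit of the 2 groups alone (up to 0.098 over the 25 alternatives). In R117fs against GFP the value was -0.06 ± 0.09 (adjusted p = 0.704), and without R117fs replicate 4 it passed at -0.18 (adjusted p = 0.0422).

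MCM6 averaged 168 ± 2.07 CPM in G659fs, 174 ± 5.77 in R117fs, 178 ± 5.39 in WT and 188 ± 4.44 in GFP cells (SD, n = 4) and fell in G659fs against GFP (-0.16 ± 0.05, adjusted p = 0.0253). That difference was lost without any 1 of G659fs replicates 1, 2, 3 and 4 and GFP replicate 2 (adjusted p 0.0509 to 0.0802) and without the low-count filter, with an effective length offset and with the GC trend removed (up to 0.162 over the 25 alternatives). MCM7 (chr7:100092728-100101940, - strand), the highest subunit over all its transcripts, had 687, 652, 626 and 649 CPM in G659fs, 730.3, 599, 579.7 and 818 CPM in R117fs, 756, 686, 732 and 739 CPM in WT, and 758, 714, 686 and 706 CPM in GFP cells. Its libraries overlapped between all groups, and no comparison passed, at log2 fold changes from -0.16 to 0.02.

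Of the 8 helicase activators, GINS3 and GINS4 of the 4-subunit GINS complex passed tests, and both were lower in R117fs than in WT. CDC45, MCM10, GINS1, GINS2, CDC7 and DBF4 passed none. GINS3 (chr16:58295080-58406144, + strand) had 48.2, 44.99, 46.4 and 48.8 CPM in G659fs, 45.04, 38.4, 40.00 and 44.4 CPM in R117fs, 53.6, 54.4, 52.3 and 52.8 CPM in WT, and 52.5, 49.1, 50.3 and 48.1 CPM in GFP cells. Every R117fs library was below every WT and GFP library, and the lowest of G659fs touched the highest of R117fs. GINS3 fell in R117fs against WT (-0.35 ± 0.06, adjusted p = 0.00319) and in R117fs against GFP (-0.25 ± 0.06, adjusted p = 0.0111); the first call was lost in a fit of the 2 groups alone (adjusted p = 0.088) and in no other of the 25 alternatives and the second was lost in a fit of the 2 groups alone (adjusted p = 0.13) and in no other of the 25 alternatives. R117fs replicate 4 was inside the range of its group for GINS3, whose transcripts have a GC content of 48.3%.

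GINS4 averaged 48.1 ± 0.999 CPM in G659fs, 41.9 ± 3.38 in R117fs, 51.3 ± 0.893 in WT and 42.8 ± 4.92 in GFP cells (SD, n = 4). It rose in WT against GFP (0.26 ± 0.08, adjusted p = 0.0205). This call was lost without any 1 of WT replicate 4 and GFP replicates 2 and 4 (adjusted p 0.0538 to 0.0878) and with an effective length offset (up to 0.0978 over the 25 alternatives). The fall in R117fs against WT was -0.29 ± 0.08, adjusted p = 0.0263. That call was lost without any 1 of R117fs replicates 2 and 3 and WT replicates 1, 2, 3 and 4 (adjusted p 0.0568 to 0.0763) and with an effective length offset and in a fit of the 2 groups alone (up to 0.151 over the 25 alternatives). CDC45 (chr22:19479459-19520612, + strand), which travels with the active helicase, had 107, 108, 105 and 107 CPM in G659fs, 106, 107, 104 and 115 CPM in R117fs, 115, 111, 115 and 111 CPM in WT, and 119, 113, 113 and 113 CPM in GFP cells. The spread among its 16 libraries was narrow, and its log2 fold changes were between -0.09 and -0.01 with no test passed.

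Among the 9 polymerase and primase genes the calls fell on accessory subunits. POLD2, the second subunit of polymerase delta, rose in all 3 RNF43 groups against GFP and was the only member called against GFP in each of them, while the catalytic subunits POLA1, POLD1, POLE and PRIM1 passed no test. POLD3 rose in WT, PRIM2 fell in G659fs, and POLE2 was lower in R117fs than in the other RNF43 groups. POLA2 passed none either.

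POLD2 (chr7:44114681-44124358, - strand) had 152, 145, 134 and 156 CPM in G659fs, 169.8, 161, 159 and 211 CPM in R117fs, 169.8, 169, 164 and 170.1 CPM in WT, and 136, 120.4, 121 and 120.1 CPM in GFP cells. All R117fs and WT libraries were above all GFP libraries, 3 of 4 G659fs libraries were, and GFP replicate 1 stood above the other GFP libraries. POLD2 rose in R117fs against GFP (0.49 ± 0.08, adjusted p = 0.00073) and in WT against GFP (0.44 ± 0.08, adjusted p = 0.00121), and both calls held in all 25 alternatives, with adjusted p at most 0.0312 and 0.00624. The rise in G659fs against GFP (0.24 ± 0.08, adjusted p = 0.0397) was lost without any 1 of G659fs replicates 1, 2 and 4 and GFP replicates 2, 3 and 4 (adjusted p 0.0699 to 0.111) and with an effective length offset (up to 0.111 over the 25 alternatives). The lower level in G659fs than in R117fs (-0.26 ± 0.08, adjusted p = 0.044) was lost without any 1 of G659fs replicates 1, 2, 3 and 4, WT replicates 3 and 4 and GFP replicates 2 and 3 (adjusted p 0.0502 to 0.149) and without the low-count filter, with an effective length offset and in a fit of the 2 groups alone (up to 0.167 over the 25 alternatives).

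POLE2 (chr14:49643555-49688422, - strand) had 20.6, 19.5, 18.7 and 19.2 CPM in G659fs, 17.2, 15.6, 16.9 and 10.3 CPM in R117fs, 20.3, 20.5, 20.99 and 19.5 CPM in WT, and 16.04, 17.6, 18.3 and 17.9 CPM in GFP cells. R117fs replicate 4 had the lowest value, and the other R117fs libraries were also below all G659fs and WT libraries while they overlapped with GFP. POLE2 fell in R117fs against WT (-0.43 ± 0.11, adjusted p = 0.0252). The call was lost without any 1 of WT replicates 1, 2, 3 and 4 (adjusted p 0.057 to 0.073) and in a fit of the 2 groups alone (up to 0.175 over the 25 alternatives); without R117fs replicate 4 the log2 fold change was -0.30. It was higher in G659fs against R117fs (0.37 ± 0.11, adjusted p = 0.0338). It was lost without any 1 of G659fs replicates 1, 2, 3 and 4, R117fs replicate 2 and WT replicates 3 and 4 (adjusted p 0.0508 to 0.0894) and with an effective length offset and in a fit of the 2 groups alone (up to 0.168 over the 25 alternatives); without R117fs replicate 4 the value was 0.23.

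PRIM2, the large subunit of primase (chr6:57314805-57646849, + strand), had 31.5, 30.6, 29.4 and 27.98 CPM in G659fs, 40.1, 37.1, 36.9 and 24.4 CPM in R117fs, 38.7, 34.1, 35.8 and 37.3 CPM in WT, and 37.5, 39.7, 38.3 and 38.7 CPM in GFP cells. All G659fs libraries were below all WT and GFP libraries, and R117fs replicate 4 was below them all. PRIM2 fell in G659fs against GFP (-0.37 ± 0.11, adjusted p = 0.0171). This call was lost without G659fs replicate 4 (adjusted p 0.0536) and with an effective length offset (up to 0.0568 over the 25 alternatives). Near-identical copies of part of PRIM2 exist in the genome, so its counts are uncertain. POLD3 averaged 56.00 ± 2.07 CPM in G659fs, 52.95 ± 6.82 in R117fs, 61.8 ± 2.77 in WT and 50.7 ± 3.00 in GFP cells (SD, n = 4) and rose in WT against GFP (0.28 ± 0.08, adjusted p = 0.0175). That call was lost without any 1 of WT replicate 1 and GFP replicates 2 and 4 (adjusted p 0.0555 to 0.08).

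The sliding clamp PCNA, which tethers polymerases to DNA, was lower in R117fs than in WT, and 2 subunits of its loader passed a test in 1 comparison each. PCNA (chr20:5114953-5126626, - strand) had 334, 302, 308 and 302 CPM in G659fs, 317, 267, 265 and 279 CPM in R117fs, 359, 330.3, 330.1 and 328 CPM in WT, and 321, 305, 325 and 286 CPM in GFP cells. R117fs libraries were all below the WT libraries, and R117fs replicate 1 overlapped with G659fs and GFP. The fall in R117fs against WT was -0.26 ± 0.07, adjusted p = 0.0259. The call was lost without any 1 of R117fs replicates 2 and 3 and WT replicates 1, 2, 3 and 4 (adjusted p 0.0561 to 0.0915) and without the low-count filter, with the GC trend removed and in a fit of the 2 groups alone (up to 0.167 over the 25 alternatives). RFC5 averaged 106 ± 4.66 CPM in G659fs, 113 ± 9.19 in R117fs, 121 ± 3.83 in WT and 105 ± 2.31 in GFP cells (SD, n = 4) and rose in WT against GFP (0.21 ± 0.06, adjusted p = 0.025). It was lost without any 1 of WT replicates 1 and 4 and GFP replicates 2, 3 and 4 (adjusted p 0.0532 to 0.0905) and without the low-count filter and with an effective length offset (up to 0.115 over the 25 alternatives). RFC2 averaged 105 ± 7.52 CPM in G659fs, 129 ± 14.4 in R117fs, 125 ± 6.77 in WT and 112 ± 6.68 in GFP cells (SD, n = 4) and was lower in G659fs against R117fs (-0.31 ± 0.08, adjusted p = 0.0151). That difference was lost without G659fs replicate 3 (adjusted p 0.0611) and in a fit of the 2 groups alone (up to 0.084 over the 25 alternatives). The G659fs and R117fs libraries of RFC2 overlapped. RFC1, RFC3 and RFC4 passed no test.

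In the group of single-strand binding and lagging-strand genes, FEN1, the nuclease that trims the flaps of Okazaki fragments, rose modestly in G659fs and in WT. RPA3, the smallest subunit of the single-strand binding protein RPA, rose in WT and was lower in G659fs than in WT. RPA1, RPA2 and LIG1, the ligase that joins the fragments, passed no test.

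FEN1 averaged 142 ± 1.77 CPM in G659fs, 128 ± 5.87 in R117fs, 144 ± 4.16 in WT and 126 ± 3.62 in GFP cells (SD, n = 4). It rose in G659fs against GFP (0.18 ± 0.05, adjusted p = 0.016) and in WT against GFP (0.20 ± 0.05, adjusted p = 0.0115), and both calls held in all 25 alternatives, with adjusted p at most 0.0491 and 0.0468. The differences from R117fs were smaller: G659fs against R117fs gave 0.16 ± 0.05, adjusted p = 0.0482. That call was lost without any 1 of 15 libraries, all but R117fs replicate 4 (adjusted p 0.0507 to 0.138) and with RLE normalisation, without the low-count filter and in a fit of the 2 groups alone (up to 0.259 over the 25 alternatives). R117fs against WT gave -0.18 ± 0.05, adjusted p = 0.045. The call was lost without any 1 of 14 libraries, all but R117fs replicates 1 and 4 (adjusted p 0.0554 to 0.142) and with RLE normalisation, without the low-count filter and in a fit of the 2 groups alone (up to 0.289 over the 25 alternatives).

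RPA3 (chr7:7636518-7718607, - strand) had 47.8, 41.5, 42.3 and 42.7 CPM in G659fs, 46.6, 50.5, 46.8 and 38.6 CPM in R117fs, 58.4, 51.7, 53.5 and 49.9 CPM in WT, and 44.99, 43.5, 47.8 and 41.2 CPM in GFP cells. WT libraries were above all G659fs and GFP libraries and overlapped with R117fs. The rise in WT against GFP was 0.27 ± 0.08, adjusted p = 0.0264. It was lost without any 1 of WT replicates 1 and 3 and GFP replicates 1, 2 and 4 (adjusted p 0.0541 to 0.111). The fall in G659fs against WT was -0.29 ± 0.08, adjusted p = 0.0441. This call was lost without any 1 of 11 libraries, all but G659fs replicate 1 and R117fs replicates 1, 2, 3 and 4 (adjusted p 0.0591 to 0.181) and without the low-count filter and with an effective length offset (up to 0.181 over the 25 alternatives). RPA2 (chr1:27891524-27914746, - strand) had 173, 169.7, 171 and 161 CPM in G659fs, 176, 157, 150.3 and 146 CPM in R117fs, 184, 173, 176 and 178 CPM in WT, and 176, 174, 182 and 172 CPM in GFP cells. Only R117fs replicates 2 to 4 were below all other libraries, and no comparison passed.

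CHAF1A, CHAF1B and UHRF1, which place histones and DNA methylation marks on the copied strands, passed no test in the 6 comparisons. CHAF1A (chr19:4402662-4445018, + strand) had 193, 197, 187 and 192 CPM in G659fs, 197, 177, 175 and 239 CPM in R117fs, 189.7, 179, 186 and 189 CPM in WT, and 209, 215, 199 and 213 CPM in GFP cells. All G659fs and all WT libraries were below all GFP libraries, at -0.12 ± 0.08, adjusted p = 0.282 and -0.17 ± 0.08, adjusted p = 0.141. Without R117fs replicate 4 both passed, at -0.12 (adjusted p = 0.0309) and -0.17 (adjusted p = 0.00494), and R117fs against GFP passed at -0.19 (adjusted p = 0.00626).

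Of the other nucleotide synthesis genes, most of them of de novo purine and pyrimidine synthesis, some rose in each RNF43 group against GFP. Of 27 genes tested from 28 listed, 8 rose and 1 fell in G659fs, 6 rose and 1 fell in R117fs and 13 rose and 0 fell in WT, each against GFP, and 1 gene of the list was lower in WT at an unadjusted p under 0.05 and 0 in DESeq2. The list's median log2 fold changes were 0.08, 0.05 and 0.22, where the medians of all genes tested were 0.00, -0.01 and 0.00. Of the 13 rises in WT 9 held in all 25 alternatives, and leaving out any 1 library left 9 to 15. In R117fs the 6 rises became 3 without GFP replicate 4, 10 without R117fs replicate 4 and 1 with the 2 groups alone. Set against WT, 1 gene of the list was lower and 0 higher in G659fs, where 2.98% of all genes were lower and 2% higher. In R117fs against WT 2 were lower and 0 higher, where 3.48% of all genes were lower and 4.48% higher. At an unadjusted p under 0.05 these were 6 lower and 1 higher in G659fs and 10 lower and 0 higher in R117fs, and DESeq2 gave 4 and 0 in G659fs and 2 and 0 in R117fs. The 1 in G659fs became 0 without R117fs replicate 2 or any 1 G659fs, WT or GFP library, 3 without R117fs replicate 1 or 3 and 8 without R117fs replicate 4. The 2 in R117fs became 0 without WT replicate 2, 3 or 4, 1 without WT replicate 1, GFP replicate 2 or G659fs replicate 2 and 10 without R117fs replicate 1. For this list and those that follow, the shares of all genes tested that were higher and lower against GFP were 11.4% and 13.5% in G659fs, 7.16% and 8.41% in R117fs and 9.64% and 11.3% in WT.

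Of the purine enzymes, ATIC, which closes the purine ring, rose in R117fs against GFP (0.25 ± 0.07, adjusted p = 0.0249) and in WT against GFP (0.40 ± 0.07, adjusted p = 0.000886). The WT call held in all 25 alternatives, and the R117fs call was lost without GFP replicate 2, 3 or 4 or R117fs replicate 1, with an effective length offset and with the 2 groups alone (adjusted p up to 0.161). CTPS1, which makes CTP, rose in G659fs against GFP (0.51 ± 0.06, adjusted p = 1.15e-05) and in WT against GFP (0.39 ± 0.06, adjusted p = 0.000205), and both calls held in all 25 alternatives. NME1, a nucleoside diphosphate kinase, rose in all 3 groups against GFP: in G659fs (0.33 ± 0.06, adjusted p = 0.00131), in R117fs (0.36 ± 0.06, adjusted p = 0.00153) and in WT (0.39 ± 0.06, adjusted p = 0.000435). These 3 calls held in all 25 alternatives, but NME1 shares sequence and a readthrough transcript with NME2, so its counts are uncertain. RRM2B, the small reductase subunit that p53 induces, went the other way from RRM2 in G659fs: it fell in G659fs against GFP (-0.63 ± 0.14, adjusted p = 0.00364), which held in all 25 alternatives, and in R117fs against GFP (-0.49 ± 0.14, adjusted p = 0.0242), which was lost without GFP replicate 2, 3 or 4, with an effective length offset and with the 2 groups alone (adjusted p up to 0.153).

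Other replication machinery, 30 genes outside the 48, gave 6 higher and 4 lower in G659fs, 2 and 7 in R117fs and 4 and 2 in WT, each against GFP. DONSON, a factor of helicase assembly, fell in all 3: in G659fs (-0.30 ± 0.08, adjusted p = 0.00789) and in R117fs (-0.41 ± 0.08, adjusted p = 0.00185) in all 25 alternatives, and in WT (-0.28 ± 0.08, adjusted p = 0.0131), where the call was lost with an effective length offset and without WT replicate 4 (adjusted p up to 0.0536). RNASEH2A, which removes ribonucleotides from DNA, rose in all 3: in G659fs (0.26 ± 0.08, adjusted p = 0.0274), in R117fs (0.29 ± 0.08, adjusted p = 0.0211) and in WT (0.37 ± 0.08, adjusted p = 0.00346). The WT call held in all 25 alternatives. The G659fs call was lost without GFP replicate 3 or 4 or G659fs replicate 1, 2 or 4 (adjusted p up to 0.0737), and the R117fs call without GFP replicate 3 or 4 and with the 2 groups alone (adjusted p up to 0.159). TEN1 of the CST complex at telomeres rose in G659fs (0.46 ± 0.10, adjusted p = 0.00278) in all 25 alternatives. The 6 higher genes of G659fs became 10 without R117fs replicate 4, and the 4 lower became 1 without G659fs replicate 2 or 3, 2 without G659fs replicate 1 or GFP replicate 3 or 4 and 7 without R117fs replicate 4. The 2 higher genes of R117fs became 1 without GFP replicate 3 or 4, and the 7 lower became 3 without GFP replicate 2 or 3 and 2 without GFP replicate 4. The 4 higher genes of WT became 2 without GFP replicate 2 or WT replicate 3, 1 without GFP replicate 4 and 10 without R117fs replicate 4, and the 2 lower became 1 without WT replicate 4 and 6 without R117fs replicate 4. With the 2 groups alone R117fs kept 0 higher and 1 lower.

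E2F factors and genes of S-phase entry, 21 in all, gave 2 higher and 3 lower in G659fs, 1 and 6 in R117fs and 2 and 0 in WT, each against GFP; in WT 2 were lower at an unadjusted p under 0.05 and 1 in DESeq2. CCNE2, a cyclin of S-phase entry, fell in R117fs against GFP (-0.55 ± 0.11, adjusted p = 0.00312), in R117fs against WT (-0.63 ± 0.11, adjusted p = 0.00269) and was higher in G659fs against R117fs (0.51 ± 0.11, adjusted p = 0.00557). Each of these calls was lost with the 2 groups alone (adjusted p 0.0622, 0.066 and 0.0623) and in no other alternative. The 6 lower genes of R117fs became 3 without GFP replicate 2, and a fit of the 2 groups alone called none of the 6. The 3 lower genes of G659fs became 1 without G659fs replicate 2 or 3 and 6 without R117fs replicate 4. The 1 higher gene of R117fs was lost without any 1 of 14 libraries, all but GFP replicate 2 and R117fs replicate 4, and the 2 higher of WT became 1 without any 1 of 12 libraries, all but R117fs replicates 1, 3 and 4 and G659fs replicate 1. TFDP1, the partner of E2F factors in binding DNA, rose in G659fs against GFP (0.27 ± 0.05, adjusted p = 0.00131) in all 25 alternatives.

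As a comparison outside S phase, 10 of 20 mitosis genes fell and 0 rose in R117fs against GFP (0 rose at an unadjusted p under 0.05, and 0 in DESeq2), and 8 fell in R117fs against WT (3.48% of all genes were lower). A fit of the 2 groups alone called none of the 10 and none of the 8. BUB1, a spindle checkpoint kinase, fell in R117fs against GFP (-0.58 ± 0.12, adjusted p = 0.00302), and this call was lost with the 2 groups alone (adjusted p = 0.0543). The 10 became 5 without GFP replicate 2 and 4 without GFP replicate 4. The 8 became 5 without WT replicate 1, 3 without WT replicate 2 or 4 and 4 without WT replicate 3. Against GFP 2 mitosis genes fell in G659fs, and in WT 1 fell and 1, CCNB2 (0.24 ± 0.08, adjusted p = 0.0321), rose. The 2 falls in G659fs became 0 without GFP replicate 2 or 4 or G659fs replicate 1, 2 or 4, 1 without WT replicate 3 or 4 or G659fs replicate 3 and 5 without R117fs replicate 4. The rise of CCNB2 was lost without any 1 GFP library or WT replicate 1, 2 or 4, without the low-count filter and with an effective length offset (adjusted p up to 0.106). The fall in WT was lost without GFP replicate 2 or 4 or any 1 WT or G659fs library, and 2 genes fell without R117fs replicate 4. Histone chaperones gave 0 calls in G659fs (0 higher and 1 lower at an unadjusted p under 0.05, 1 higher and 1 lower in DESeq2), 1 rise in R117fs and 2 in WT among 11 genes, each against GFP, and in G659fs 2 were higher and 2 lower without R117fs replicate 4. The 2 rises in WT became 1 without any 1 GFP library or WT replicate 1, 2 or 4. SSRP1, of the FACT chaperone, rose in R117fs (0.22 ± 0.05, adjusted p = 0.00623), where the call was lost with the 2 groups alone (adjusted p = 0.112), and in WT (0.20 ± 0.05, adjusted p = 0.00783), where it held in all 25 alternatives.

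The values of the members moved with GC content most in R117fs replicate 4. GC content ran from 38.5% to 65.2% over their transcripts, with a median of 48.1% (49.5% in all genes tested). R117fs replicate 4 was above the mean of the other 3 R117fs libraries for 17 members and below it for 31, by -0.76 to 0.65 on the log2 scale. The 24 members of higher GC content had a median deviation of 0.19 and the 24 of lower GC content one of -0.43, with a Spearman correlation of 0.95 across the 48 members, which share the library. RRM2, POLE2 and ORC3 were low in that library and low in GC content, and CDT1, MCM5 and POLD2 were high in both. Other libraries followed GC content too, with smaller deviations: R117fs replicates 2 and 3 ran against it (-0.92, SD of the deviations 0.18, and -0.88, SD 0.19), where the mean they are set against holds replicate 4, and GFP replicate 1 ran with it (0.73, SD 0.11). The other 12 libraries had correlations from -0.41 to 0.32 and SDs of at most 0.14, against an SD of 0.39 in R117fs replicate 4. The part of replicate 4 in the calls is given by the values without it. When the GC trend of each library was removed, 17 members were called in G659fs (40.3% of all genes), 13 in R117fs (27.5%) and 19 in WT (37.7%), each against GFP. The split of higher and lower was 9 and 8 in G659fs and 6 and 7 in R117fs against GFP with this correction, beside 3 and 5 in G659fs and 2 and 1 in R117fs without it. The same correction gave 20 in G659fs against R117fs (29%), 17 in G659fs against WT (19.8%) and 16 in R117fs against WT (17.6%).

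**Figure D4:**
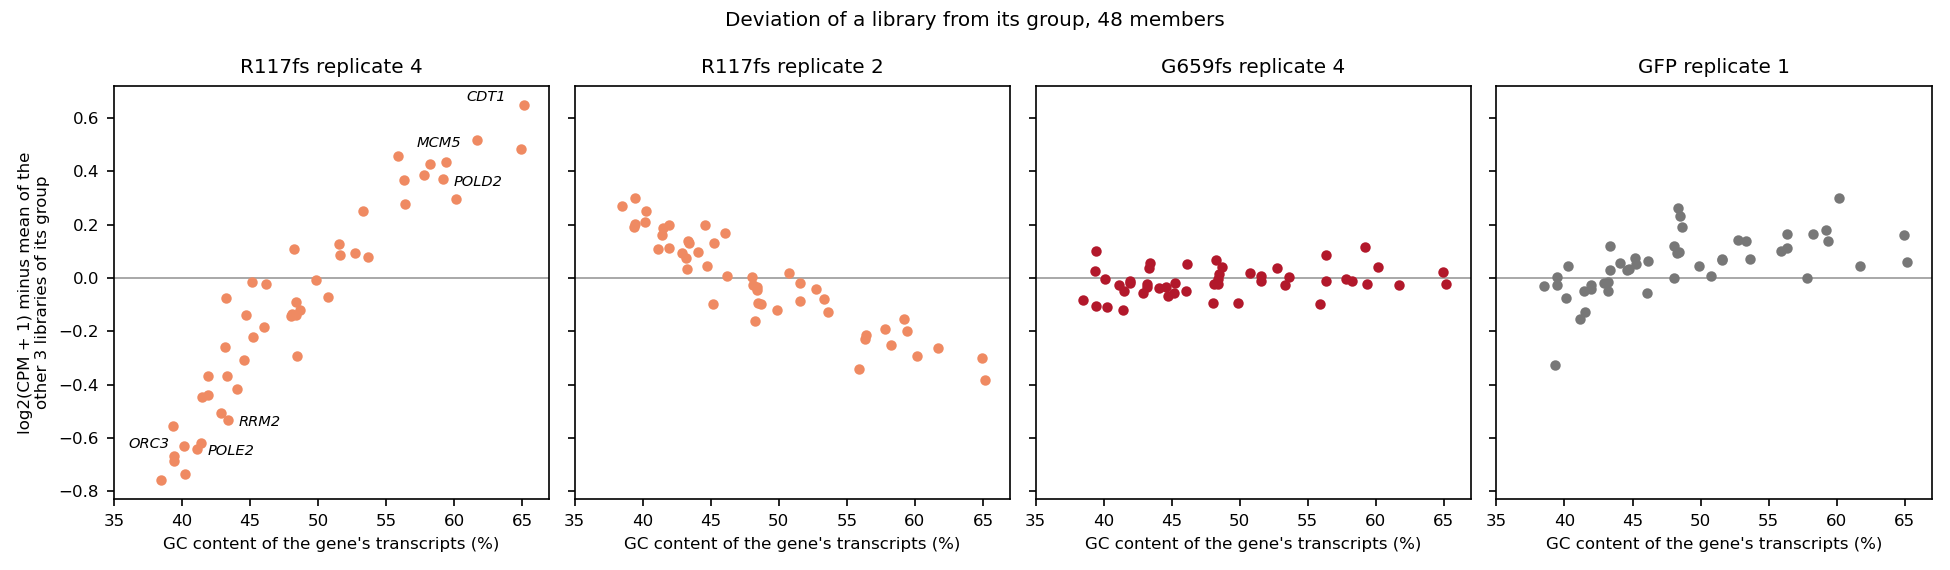
Each point is 1 of the 48 members: the x axis is the GC content of its transcripts in % and the y axis the log2(CPM + 1) of 1 library minus the mean of the other 3 libraries of its group. The deviations climb with GC content from -0.76 to 0.65 in R117fs replicate 4, fall with it in R117fs replicate 2 (SD 0.18), stay close to 0 in G659fs replicate 4 (SD 0.05, among the smallest) and climb weakly in GFP replicate 1 (SD 0.11).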

How the data were processed

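RNA was prepared with the RNeasy kit and DNase I, and libraries with an NEBNext protocol for Illumina, per the labels' protocols. The authors quantified transcripts with kallisto 0.45.1 on GRCh38, per the submitters' processing notes, and their annotation release was not given in the sources used here. Each deposited file holds an estimated count and a TPM value per transcript and library, per the file headers. Near-identical genes share reads by kallisto's estimate, and reads of antisense genes may not be separable, since strand handling was not given.

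Of 178136 transcripts 162453 (91.2%) were matched to GENCODE 29, and the unmatched ones took 1.90% to 2.22% of each library's counts. Estimated counts were summed per gene and rounded to whole numbers, and TPM values were summed per gene. Coordinates are those of GENCODE 29 on GRCh38. Closely related copies and overlapping genes make some counts uncertain. This is said beside PRIM2 and NME1, and it was not assessed for the other genes.

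The 16 libraries entered 1 fit in edgeR 4.0.16 (R 4.3.3) with TMM scaling, its filter on low counts by group, robust dispersions and the quasi-likelihood test. P-values were adjusted by Benjamini-Hochberg over all 16787 genes tested, with a threshold of 0.05. The common biological coefficient of variation was 0.103. CPM values use TMM-scaled library sizes, and SE is the absolute log2 fold change divided by the square root of F. The steps were tested on simulated data with the same spread for all genes and no library with a GC trend. Its changes were about as large as that of RRM2 or larger. It therefore does not show how the steps handle R117fs replicate 4 or smaller changes. No 2 libraries of a group agreed within sampling noise (the closest pair had a chi-square of 3.53 per degree of freedom). Comparing CPM between genes of different length was avoided, and levels were compared in TPM.

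The 48 members, the other gene lists and the tests were chosen with earlier results of these data known. Values in every library are given for up to 4 called members per comparison with the largest change and, per role, for the member with the highest TPM in GFP cells. Other called members were added after their values were seen. Up to 3 called genes per other list and comparison could be named, and 1 listed gene of nucleotide synthesis was not in the table. Alternatives were RLE scaling, DESeq2 1.42.0, no filter, an effective length offset, a GC trend offset (lowess span 0.3, prior count 2), the replicate number as a block with and without the GC offset, the 2 groups compared alone, and each library left out in turn. The GC offset without R117fs replicate 4 was chosen after seeing the data. The result of the blood cell marker list as a whole is not reported here.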

Additional observations from a re-analysis of the deposited data

Results flagged for a closer look

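In 72 groups of 4 libraries, 18 members in 4 groups each, 5 libraries lay far from the other 3 of their group, with a gap above Dixon's critical share of the range of the group. Chance gives about 1 in 20 groups. RRM2 had 107.5 CPM in R117fs replicate 4, against 152.1 to 160.9 CPM in the other R117fs libraries. POLD2 had 164.0 CPM in WT replicate 3, against 169.2 to 170.1 CPM in the other WT libraries. In GFP cells POLD2 had 136.4 CPM in replicate 1 and 120.1 to 120.5 CPM in the others. PCNA had 359.1 CPM in WT replicate 1, against 327.8 to 330.3 CPM in the other WT libraries. CDC45 had 118.5 CPM in GFP replicate 1 and 112.6 to 113.1 CPM in the other GFP libraries.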

How the results depend on the processing

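Of the 41 calls on members, 11 held in all 25 alternatives and 0 changed direction, and no median log2 fold change of the members moved by more than the spread of library medians (0.058). The number of members called moved more. With the GC trend removed it was 17 in G659fs, 13 in R117fs and 19 in WT, each against GFP, 20 in G659fs against R117fs, 17 in G659fs against WT and 16 in R117fs against WT. With the GC trend removed and R117fs replicate 4 left out, chosen after seeing the data, it was 19, 14 and 20 against GFP, 17 in G659fs against R117fs and 18 in G659fs against WT. With the 2 groups alone it was 13, 1 and 22 against GFP, 3 in G659fs against R117fs, 22 in G659fs against WT and 0 in R117fs against WT. In the last of these 11 were lower and 0 higher at an unadjusted p under 0.05 in edgeR. With the effective length offset it was 4 in G659fs (2 higher and 2 lower) and 5 in R117fs against GFP, 7 in R117fs against WT (1 higher and 6 lower) and 0 in G659fs against WT (15 lower and 0 higher at an unadjusted p under 0.05). Without the filter it was 5 in R117fs against WT. DESeq2, fitted to all 16 libraries with no length offset, gave 6 in R117fs against GFP. It gave 9 in G659fs against WT and 12 in R117fs against WT, all of them lower. The share of all genes called is not given here for the length offset, the fit without the filter, DESeq2 or the GC offset without R117fs replicate 4. Their counts are therefore no result about the members in particular. The cause of these moves was not tested. Leaving out 1 library gave 4 to 15 in G659fs, 2 to 10 in R117fs and 5 to 20 in WT against GFP, 4 to 16 in G659fs against R117fs, 0 to 18 in G659fs against WT and 3 to 14 in R117fs against WT.

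Across all genes tested, the replicate numbers paired the libraries weakly at most. The 24 same-numbered pairs had correlations of -0.062 to 0.16, 4 of them over 0.1, and 0 of 16 libraries were closest to their own number in every other group. Many of the 48 members did share a shift in replicate 1. In all 4 groups replicate 1 lay above the mean of its group's other libraries for TYMS, PCNA, LIG1 and CHAF1B. The same held for many others, among them MCM2, MCM3, MCM4, MCM5 and MCM7. Only for DBF4 did it lie below that mean in all 4 groups. A replicate effect shared by the members was not tested. With the replicate block the calls were 8 in G659fs, 3 in R117fs and 13 in WT against GFP, 11 in G659fs against R117fs, 6 in G659fs against WT and 10 in R117fs against WT. With the replicate block and the GC trend removed they were 21, 19 and 24 against GFP, 23 in G659fs against R117fs, 22 in G659fs against WT and 24 in R117fs against WT. The share of all genes called with the block is not given here, so these counts are no result about the members in particular. With the GC trend removed alone that share was 40.3% in G659fs, 27.5% in R117fs and 37.7% in WT, each against GFP. With 4 libraries a group, the smallest difference called among the 48 members in the main fit was 0.16 on the log2 scale. It describes these calls and is no limit of detection.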

Other observations

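By kallisto's estimates, RRM2 was made mostly as 2 coding transcripts. The first, of 3271 bases, held 58.9% ± 1.99 of RRM2's reads in G659fs, 48.99% ± 25.7 in R117fs, 62.8% ± 9.74 in WT and 67.9% ± 4.21 in GFP cells (SD, n = 4), and the second, of 3434 bases, held 31.6% ± 2.16 in G659fs, 36.3% ± 15.6 in R117fs, 27.9% ± 8.45 in WT and 23.8% ± 2.93 in GFP cells. CDC6 had 85.2% ± 0.74 of its reads in its 4810-base transcript in G659fs, 82.7% ± 4.05 in R117fs, 85.7% ± 0.68 in WT and 85.0% ± 1.04 in GFP cells. These shares were not tested between groups.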
